A study of Mus musculus with 6 samples.

Results

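The germline genes Dazl, Mael, Sycp1, Sycp3, Ddx4, Tex101, Stk31, Slc25a31, Stag3 and Tex13b were examined in mouse embryonic stem cells whose Trim71 protein was either wild type (WT) or carried R783H, the amino-acid change that the series title ties to hydrocephalus. These 10 genes, chosen as germline and meiosis genes often silenced by promoter methylation, were read from a table of 27179 gene identifiers, and all 10 were found in it. They were chosen by name, with the R783H against WT counts of these same libraries in view, so their differences are given as a description and no p-value is attached to them. The cells were E14TG2a embryonic stem cells, a male line, kept on gelatin in 2i medium (the MEK inhibitor PD0325901 and the GSK3 inhibitor CHIR99021) with LIF and a small amount of serum. Every group, WT included, carried FLAG-tagged Trim71. There were 3 libraries of poly(A)-selected RNA per group, lettered A, B and C, and the labels do not say whether a letter stands for a clone, a culture or a preparation, so the spread between them may be technical. DNA methylation itself was not measured in these files.

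Most germ cell genes are shut in other tissues, and a subset with CpG-rich promoters relies on methylation of those promoters for that silence. In embryonic stem cells a second layer is supplied by PRC1.6, a Polycomb complex that reaches such promoters through the DNA-binding pairs MGA-MAX, which reads the E-box CACGTG, and E2F6-DP1. Cells held in 2i have low genome-wide methylation, and low-level transcripts of germline genes are commonly seen in them.

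The stretch upstream of the start of transcription is where that silencing acts, so the 250 bases before the RefSeq start (assembly GRCm38.p6) of 5 genes are shown: Sycp1 and Sycp3, which stood higher in R783H, Mael and Stk31, which stood lower, and Tex13b, which was nearly absent there. Capitals mark CACGTG. Each line is written 5′ to 3′ on the gene's own strand.
Sycp1, chr3:102936101-102936350, minus strand: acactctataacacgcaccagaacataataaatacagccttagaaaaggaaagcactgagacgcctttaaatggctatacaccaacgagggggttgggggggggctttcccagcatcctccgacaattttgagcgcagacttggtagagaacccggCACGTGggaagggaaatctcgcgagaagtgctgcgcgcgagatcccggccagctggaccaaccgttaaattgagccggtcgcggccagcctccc
Sycp3, chr10:88459337-88459586, plus strand: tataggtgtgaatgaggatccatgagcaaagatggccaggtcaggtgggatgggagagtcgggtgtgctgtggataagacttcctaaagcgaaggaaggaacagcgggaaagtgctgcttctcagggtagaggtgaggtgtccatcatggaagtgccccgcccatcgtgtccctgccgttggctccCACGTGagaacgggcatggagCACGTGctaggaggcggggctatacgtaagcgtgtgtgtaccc
Mael, chr1:166238745-166238994, minus strand: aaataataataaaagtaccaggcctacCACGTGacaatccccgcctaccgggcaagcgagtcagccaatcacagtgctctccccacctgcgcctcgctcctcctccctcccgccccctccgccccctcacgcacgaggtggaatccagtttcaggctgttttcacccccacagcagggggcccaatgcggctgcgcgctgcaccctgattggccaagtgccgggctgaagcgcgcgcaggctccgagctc
Stk31, chr6:49395289-49395538, plus strand: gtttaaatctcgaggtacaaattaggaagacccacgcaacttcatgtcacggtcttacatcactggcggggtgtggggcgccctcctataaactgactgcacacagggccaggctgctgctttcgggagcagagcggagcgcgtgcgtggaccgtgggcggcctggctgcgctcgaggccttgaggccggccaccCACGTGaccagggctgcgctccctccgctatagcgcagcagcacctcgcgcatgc
Tex13b, chrX:140813434-140813683, minus strand: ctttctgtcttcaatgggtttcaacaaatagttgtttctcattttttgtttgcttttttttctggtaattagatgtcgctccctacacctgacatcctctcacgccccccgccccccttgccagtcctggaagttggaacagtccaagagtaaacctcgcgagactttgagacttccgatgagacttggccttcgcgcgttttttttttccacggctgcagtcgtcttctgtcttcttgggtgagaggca

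All 10 genes had a promoter in the RefSeq set. CACGTG, which reads the same on both strands, was present in the 250 bases of 7 of them: Sycp1, Sycp3, Stag3, Ddx4, Mael, Stk31 and Slc25a31. Across 27018 genes with a promoter sequence the share was 6.05%, and across the 10763 of these that were tested for expression it was 8.61%. Sycp3 held the motif at 2 places, the nearer starting 43 bases upstream of its start. In Ddx4 it began 29 bases upstream, in Stk31 55, in Slc25a31 93, in Sycp1 94, in Stag3 170 and in Mael 223. RefSeq gives Stk31 another start, from which the motif lies 120 bases upstream. The Stag3 window (chr5:138280259-138280508) lies inside the gene's RefSeq span with all 250 bases in GENCODE exons, and 165 bases of the Ddx4 window are in exons, so these are not purely upstream sequence. Dazl, Tex101 and Tex13b had none in this window. The motif therefore sat in genes that stood higher in R783H and in genes that stood lower. GCGGGA, a core of E2F sites searched on both strands, was found in 3 of the 10 (Mael, Sycp3 and Ddx4) against 16.9% of all promoters and 30.8% of those of tested genes. These are letter matches and not measured binding. Where a window held both motifs, they did not overlap.

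CpG content was computed as the observed number of CpG over the number that the C and G content gives. It ran from 0.639 in Tex101 and Sycp3 to 1.05 in Stag3, where the median of all promoters was 0.378 and that of tested genes 0.726. Ddx4 had 31 CpG in its 250 bases, Stag3 26, Dazl 20 and Tex13b 11. By this ratio the 10 promoters lay between the 68.4th and the 96.4th percentile of all promoters. The list of 39 other methylation-linked germline genes had 34 promoters, of which 5 held CACGTG, and a median ratio of 0.567. Among the 15 promoters of piRNA pathway genes 4 held the motif, the largest share (26.7%) among the 12 other gene lists.

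**Figure D1:**
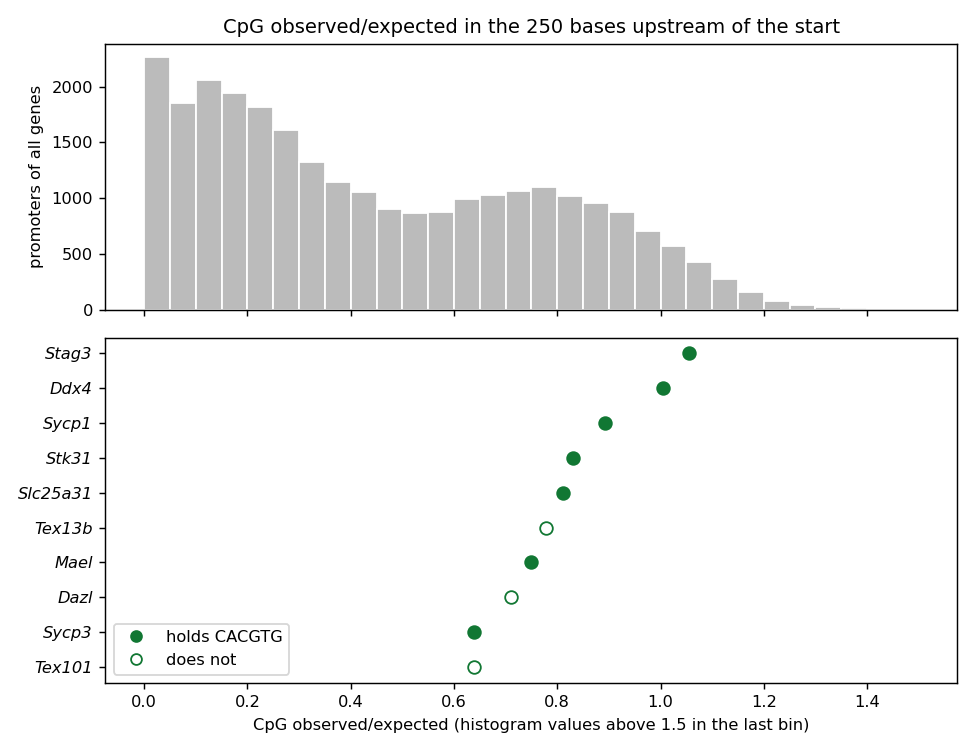
CpG observed over expected in the 250 bases upstream of the start. The upper panel counts promoters of all genes in bins of the ratio, and the lower panel marks each germline gene, filled where CACGTG is present. All 10 genes lie at 0.639 or above, to the right of the median of all promoters at 0.378, and 7 of them are filled. Dazl, Sycp3 and Tex101 lie under the median of tested genes, 0.726.

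Libraries held 20894277 to 29079670 counts. Depth was greater throughout the R783H group, so levels are given as CPM, counts scaled to library size with TMM factors. A floor of 3 counts equals 0.0998 to 0.148 CPM. Trim71 mRNA did not pass the test between the groups (log2 fold change 0.03, SE 0.08, adjusted p 0.743 by edgeR), but with an offset for transcript length and GC content it was called lower (-0.21, adjusted p 0.0136). All 13 embryonic stem cell markers were high in both groups, with means of 258 to 1385 CPM in R783H and 271 to 1234 CPM in WT. Of 18 late spermatogenesis markers 7, among them Prm3, Tnp1, Tnp2 and Akap4, had no count in any library. The list summed to 280 to 292 CPM in R783H and 289 to 292 CPM in WT, nearly all of it Odf2 (284 ± 6.95 and 288 ± 1.33 CPM, SD, n = 3 each), a gene of sperm tails that also serves centrosomes in other cells. Hspa1l was called higher (0.81, SE 0.21). Summed over the list, 14 markers of the somatic gonad gave 18.1 to 20.3 CPM in R783H and 13.5 to 15.6 CPM in WT, with Fshr at 0. Fibroblast markers (12 genes) gave 17.8 to 19.6 and 14.4 to 15.2 CPM. Within these lists Inha (log2 fold change 1.93, SE 0.46), Amh (1.14, SE 0.29) and Gata4 (6.68 ± 0.510 against 3.19 ± 0.799 CPM, SD, n = 3 each), 3 of 6 tested somatic gonad genes, were called higher. Over all tested genes 33.5% were called higher and 30.9% lower. With at least 10 counts in every library, a setting that leaves genes under that count untested, 1 somatic gonad gene was called higher. Of the fibroblast markers Thy1 (-2.74, SE 0.35) was called lower and Twist1 (1.02, SE 0.18) and Pdgfrb (0.30, SE 0.09) higher. Pdgfrb was not called by DESeq2 (0.28), without R783H C (0.27) or without WT A (0.24). With at least 10 counts in every library no fibroblast marker was called lower. The part of these marker differences in the germline genes was not tested. In bulk RNA, fewer expressing cells and less RNA per cell cannot be told apart.

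Of the 10 genes, 8 differed past the threshold of the genome-wide fit, 4 higher in R783H (Sycp1, Sycp3, Stag3 and Dazl) and 4 lower (Ddx4, Mael, Stk31 and Tex13b). CPM of the groups did not overlap for the same 8. The threshold was an adjusted p of 0.05 in the quasi-likelihood test of edgeR. In the same fit 64.5% of the 14199 tested genes passed, 33.5% higher and 30.9% lower, and 68.1% had groups without overlap. Since this contrast chose the genes, nothing is read from their count. All 10 passed the filter on low counts. Tex13b passed it through the WT libraries alone and Slc25a31 through all of WT and 1 R783H library, so for these genes the filter and the difference are linked.

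Among genes for the structure of meiotic chromosomes, Sycp1, Sycp3 and Stag3 stood higher in R783H. Sycp1 (chr3:102818499-102936100) encodes the transverse filament that zips paired chromosomes together. The R783H libraries A to C held 390, 248 and 398 counts and the WT libraries 87, 142 and 143. Every R783H library was above every WT library, with R783H B the lowest of its group. Mean CPM was 11.7 ± 2.59 for R783H and 5.60 ± 1.21 for WT (SD, n = 3 each), a 2.09-fold difference (log2 fold change 1.06, SE 0.18).

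Sycp3 (chr10:88459587-88473236), a protein of the lateral element, had 65, 30 and 55 counts in R783H and 17, 25 and 22 in WT. R783H B lay just above the highest WT library, at 1.06 against 1.03 CPM. Mean CPM was 1.69 ± 0.571 for R783H and 0.964 ± 0.106 for WT (SD, n = 3 each). This is 0.81 on the log2 scale (SE 0.28). It no longer passed without R783H A (0.58), R783H C (0.73), WT A (0.72) or WT B (0.85), and without R783H B it was 1.03. An exon of Sycp3 overlaps one of Chpt1, a phospholipid synthesis gene on the opposite strand. Chpt1 was itself higher, by 0.51 (SE 0.11, adjusted p 0.00181 by edgeR), and since the use of strand in counting is not given in the sources used here, its part in the Sycp3 counts was not tested.

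Stag3 (chr5:138272514-138312397) encodes a cohesin subunit of meiotic cells and was by far the most abundant of the set. It had 2516, 2499 and 2654 counts in R783H and 1208, 1435 and 1235 in WT. The replicates were tight, at 87.1 ± 3.05 and 58.7 ± 0.978 CPM (SD, n = 3 each), and the groups lay well apart. This was a 1.48-fold difference (log2 fold change 0.57, SE 0.05).

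Among regulators of germ cell RNA, Dazl stood higher and Ddx4, Mael and Stk31 lower in R783H. Dazl (chr17:50279393-50293620), an RNA-binding protein that controls translation in germ cells, had 158, 114 and 141 counts in R783H and 51, 69 and 75 in WT. In CPM the lowest R783H library (4.02, B) was above the highest WT library (3.51, C). The means were 4.68 ± 0.624 and 2.95 ± 0.509 CPM (SD, n = 3 each), with a log2 fold change of 0.67 (SE 0.16).

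Ddx4 (chr13:112598333-112652633), the Vasa RNA helicase of germ granules, had 110, 79 and 100 counts in R783H and 174, 206 and 178 in WT. Each WT library held more counts than each R783H library although it was sequenced less deeply. The means were 3.27 ± 0.447 and 8.45 ± 0.143 CPM (SD, n = 3 each), so WT was 2.57-fold higher (log2 fold change -1.36, SE 0.12).

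Mael (chr1:166201385-166238744), a protein of the piRNA pathway that silences transposons, had 27, 18 and 29 counts in R783H and 35, 50 and 43 in WT. The groups did not overlap in counts or in CPM, where WT was 2.30-fold higher (0.837 ± 0.18 against 1.93 ± 0.170 CPM, SD, n = 3 each). Stk31 (chr6:49395506-49469506), a germ cell protein with a Tudor and a kinase domain, differed least, with 156, 151 and 208 counts in R783H and 161, 181 and 154 in WT. Raw counts overlapped and CPM did so narrowly not, R783H C at 7.02 lying under WT C at 7.21. Its log2 fold change of -0.36 (SE 0.13) no longer passed when library size alone was used for scaling (-0.28) or without R783H A (-0.30), WT A (-0.32) or WT B (-0.38).

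Tex13b was close to absent in R783H. This X-linked gene (chrX:140808307-140813433), named for its expression in testis, was counted 4, 0 and 1 times in R783H libraries A to C and 83, 98 and 99 times in WT. The R783H libraries lay at 0.133, 0 and 0.0337 CPM, of which 2 are under the floor of 3 counts, and the WT libraries at 3.99 to 4.64 CPM. Summed over each group, 5 counts stood against 280, a scaled ratio of 74.6 with an exact 95% interval of 31.6 to 232 that covers counting error only. It ranked first among the 14199 tested genes by the size of its fitted change, a place that rests on those few counts. The gene was chosen with these counts in view and passed the filter through WT alone, so nothing is read from that rank.

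The remaining genes, Tex101 and Slc25a31, had low counts in both groups. Tex101 (chr7:24668012-24672050), a surface protein of germ cells, had 17, 24 and 11 counts in R783H and 9, 7 and 11 in WT. Slc25a31 (chr3:40708871-40726094), the ADP/ATP carrier of testis mitochondria, had 13, 9 and 8 against 18, 10 and 9. CPM overlapped in both. The ratio of summed scaled counts, R783H over WT, was 1.44 for Tex101 with an exact 95% interval of 0.891 to 2.39, and 0.608 for Slc25a31 with one of 0.363 to 1.01, so a difference was not detectable at this depth. The Slc25a31 log2 fold change of -0.71 was -0.28 without WT A, and that of Tex101 went from 0.52 to 0.17 without R783H B.

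**Figure D2:**
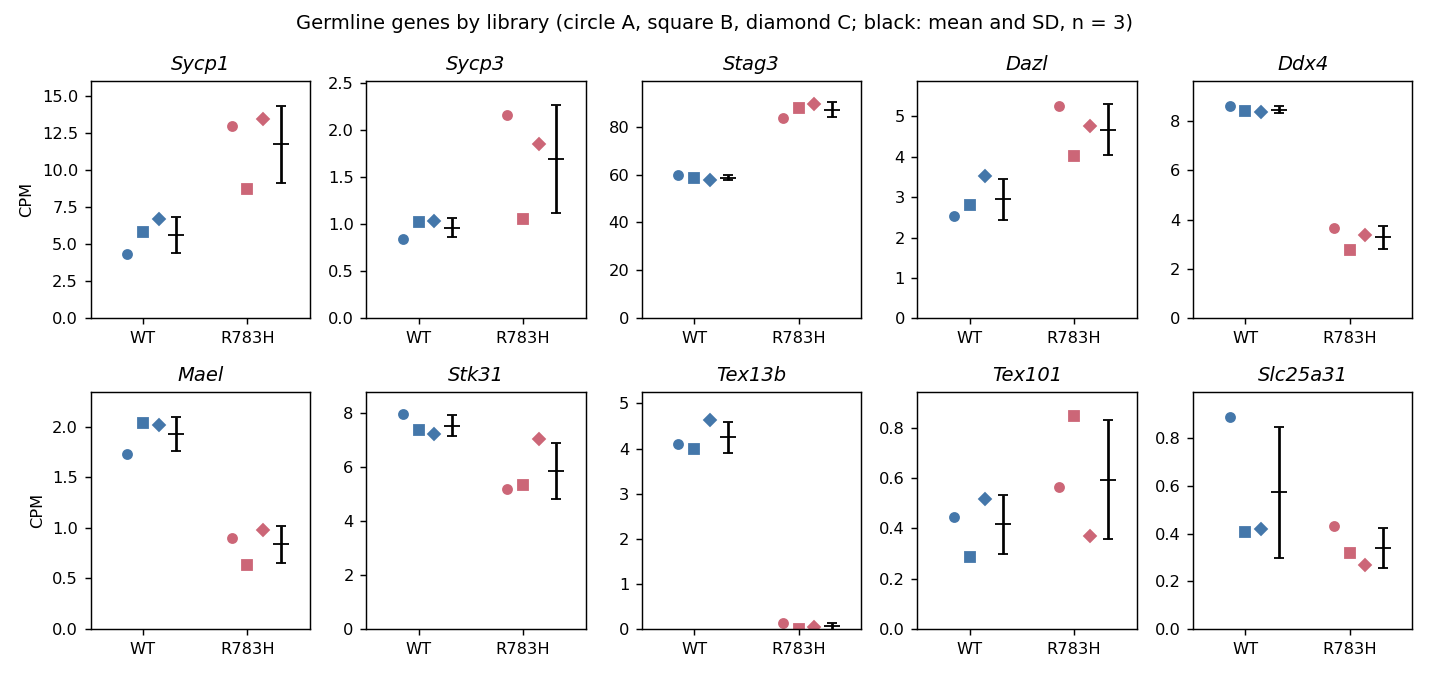
CPM of each germline gene in each library (vertical axes start at 0 and differ between panels), with circles, squares and diamonds for A, B and C and the mean and SD in black. The groups are apart in 8 panels and overlap for Tex101 and Slc25a31, and the R783H points of Tex13b lie between 0 and 0.133 CPM.

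R783H B was the lowest of its group for Sycp1, Sycp3, Dazl, Ddx4, Mael and Tex13b (0 counts), in both called directions. Its CPM was 0.526 of the mean of A and C for Sycp3, 0.662 for Sycp1, 0.676 for Mael, 0.791 for Ddx4 and 0.802 for Dazl. Over 14185 tested genes with a count in every library the median of this ratio was 1.00, and 6.97% of genes fell below 0.75. Those genes were not matched for count, and Mael and Sycp3 had just 18 and 30 counts in R783H B. The share therefore does not gauge genes with so few counts. Stag3 was at 1.02 and Stk31 at 0.871, and Tex101 was highest in R783H B, at 1.81. Without R783H B, Sycp1 had a log2 fold change of 1.21 and Mael one of -1.06, so neither direction rested on that library.

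Levels across genes were compared per kilobase of the longest GENCODE transcript. In WT the order was Stag3 (12.6 ± 0.209 CPM per kb, SD, n = 3), Ddx4 (2.80 ± 0.0475), Stk31 (2.32 ± 0.122), Tex13b (2.01 ± 0.162), Sycp1 (1.63 ± 0.352), Mael (1.14 ± 0.101), Dazl (0.991 ± 0.171), Sycp3 (0.824 ± 0.0908), Tex101 (0.340 ± 0.0967) and Slc25a31 (0.269 ± 0.129). Library ranges overlapped between Tex13b and Sycp1, Mael and Dazl, Dazl and Sycp3, and Tex101 and Slc25a31. In R783H Sycp1 came after Stag3, at 3.41 ± 0.753 against 18.7 ± 0.654 CPM per kb. Stk31, Dazl, Sycp3 and Ddx4 (1.09 ± 0.148) followed in that order, with ranges that overlapped between adjacent genes of these, and Tex13b was last.

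**Figure D3:**
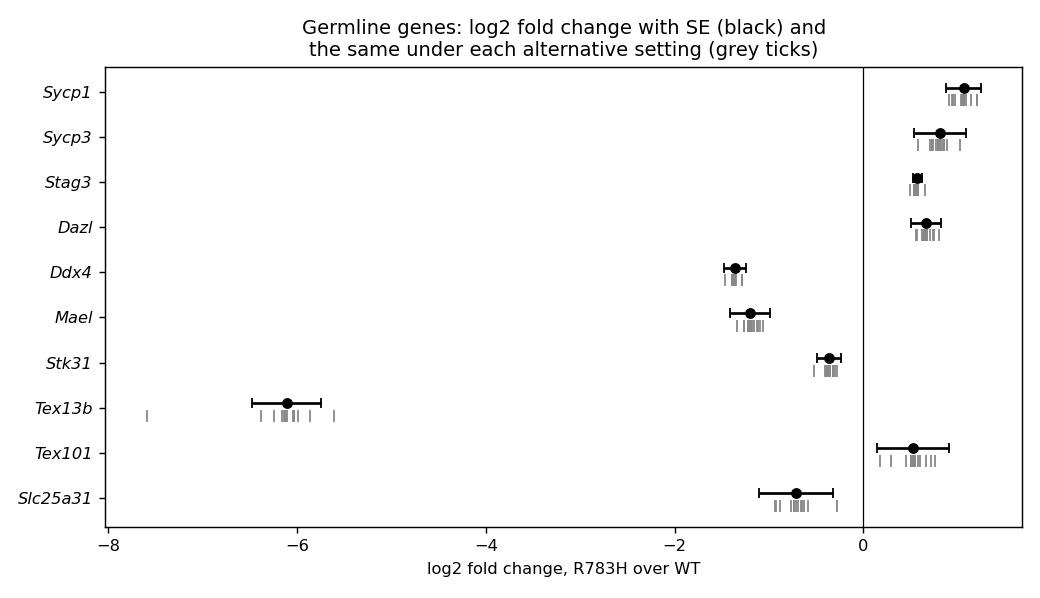
Log2 fold change of R783H over WT for each germline gene, with its SE in black and the value under each alternative setting as grey ticks. No gene crosses 0 under any alternative in which it was tested. Tex13b lies at -6.11 and the others between -1.5 and 1.3.

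The nearest gene with any count on each side was looked up to see what lay around each germline gene. No tested neighbour of any germline gene was called lower, whichever way that gene stood. Over all tested genes 33.5% were called higher and 30.9% lower. Nothing about the loci is read from these calls. Il6st and Slc38a9, on either side of Ddx4, were both higher, by 0.65 (SE 0.06) and 0.60 (SE 0.08), and Gpa33 beside Mael was higher by 0.63 (SE 0.05), with adjusted p of 3.57e-06, 7.08e-05 and 7.84e-07 by edgeR. Slc38a9 starts just 3.56 kb beyond Ddx4, while Il6st lies 91.5 kb from Ddx4 and Gpa33 34.9 kb from Mael. Fam221a beside Stk31 did not pass (0.16, SE 0.13). Ildr2, on the other side of Mael, had 1, 1 and 0 counts in R783H and 6, 5 and 9 in WT and was too low to test. Both neighbours of Tex13b had at most 2 counts in any library, so nothing can be said about its surroundings. Around the genes that stood higher, Rftn1 (0.62, SE 0.10) and Plcl2 (0.81, SE 0.09) on either side of Dazl were higher too. Rftn1 lies 88.9 kb and Plcl2 215 kb from Dazl. Tspan2 beside Sycp1 did not pass (-0.11, SE 0.22). Sike1 beside Sycp1 (0.27) and Gnptab beside Sycp3 (0.20) lost their calls with an offset for transcript length and GC content, and Gnptab also without R783H C (0.14). Intu beside Slc25a31 (0.37, SE 0.11) was called higher but not with that offset (0.19), without R783H A (0.23) or without WT B (0.32). Gpc2, which lies within the span of Stag3 (0.24, SE 0.08), was called higher but not by DESeq2 (0.22), without R783H A (0.20) or without WT B (0.22). Hspa4l did not pass (-0.12, SE 0.15). Both neighbours of Tex101 were too low to test. Differences between a gene and its neighbours were not tested.

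**Figure D4:**
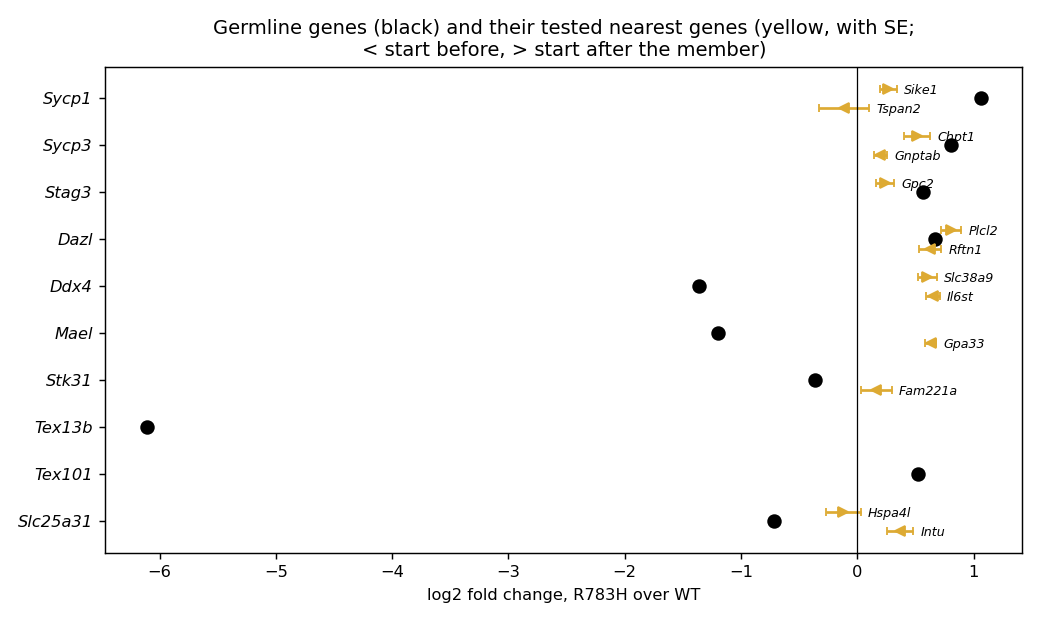
Log2 fold change of R783H over WT for each germline gene (black) and its tested nearest genes (yellow, with SE). The tested neighbours of Ddx4 and Mael lie to the right of 0 while Ddx4 and Mael lie to the left. No tested neighbour of any germline gene was called lower, and Tex13b and Tex101 have no tested neighbour.

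Further germline genes were read from lists of general knowledge. Those in the list of other methylation-linked germline genes were called no more often than the 64.5% of all tested genes. Of 39 other methylation-linked germline genes 29 were tested, with 9 called higher and 8 lower and a median log2 fold change of 0.01, where all tested genes had 0.03. With at least 10 counts in every library 5 were called lower. Brdt, Pramel1 and Ube2dnl1, also among the 8 called lower, are not tested in that setting. Pramel1, a PRAME family gene, fell by 2.04 (SE 0.33), Ube2dnl1 fell from 32, 30 and 32 counts in WT to 26, 9 and 9 in R783H and the dipeptidase gene Dpep3 rose by 1.56 (SE 0.45), with adjusted p of 2.48e-04, 0.00289 and 0.0103 by edgeR. These rest on few counts, as Pramel1 had 4, 8 and 12 in R783H and 23, 26 and 26 in WT. Dpep3 shares exon sequence with a gene on the opposite strand. Tex13a, a relative of Tex13b, had no count in any library.

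Other genes of the synaptonemal complex, meiotic cohesin and recombination were called higher in 6 and lower in 4 of 19 tested, with a median of 0.05. That is no larger a share than the 64.5% called over all tested genes. Syce1, a central element protein, fell by 0.82 (SE 0.11). Msh5, a protein of meiotic recombination, rose by 1.36 (SE 0.36), and Prdm9, the histone methyltransferase that sets recombination sites, rose by 1.14 (SE 0.28). Adjusted p were 5.23e-05, 0.00582 and 0.00409 by edgeR. R783H B was the lowest of its group for Msh5 too, at 28 counts against 61 and 53.

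In the piRNA pathway and germ granules, 9 genes were called lower and 3 higher of 15 tested, and the median was -0.51. Over all tested genes 30.9% were called lower and 33.5% higher, and DESeq2 called 1 gene of the list higher. Piwil2, a PIWI protein that binds piRNAs, had 50, 55 and 53 counts in R783H and 141, 180 and 115 in WT. Its log2 fold change was -1.87 (SE 0.15, adjusted p 1.55e-06 by edgeR). Tdrd1 fell by 1.62 (SE 0.35) and Tdrkh by 1.32 (SE 0.28). Both encode Tudor proteins that bind PIWI partners, and both had at most 38 counts in a library. Tdrkh shares exon sequence with Oaz3 on the opposite strand. The 5 untested genes of the list, Piwil4, Tdrd6, Tdrd9, Asz1 and Spocd1, were too low.

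Of 13 tested regulators of primordial germ cell fate, 5 passed as higher and 6 as lower (median -0.21), against 33.5% and 30.9% of all tested genes. Without WT A, or with at least 10 counts in every library, 3 were called higher. That minimum leaves Sox17 untested. Prdm1, which encodes the repressor BLIMP1, rose from 2.62 ± 0.433 to 6.83 ± 0.624 CPM (SD, n = 3 each), a log2 fold change of 1.38 (SE 0.14, adjusted p 7.48e-06 by edgeR). Tfap2c, encoding AP2-gamma, fell from 23.8 ± 1.24 to 10.1 ± 0.159 CPM, a log2 fold change of -1.24 (SE 0.07, adjusted p 1.58e-07 by edgeR). Sox17 rose by 1.29 (SE 0.29, adjusted p 0.00218 by edgeR) at 30 counts or fewer in a library. At equal depth Sox17 stood at 0.87 and was not called.

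**Figure D5:**
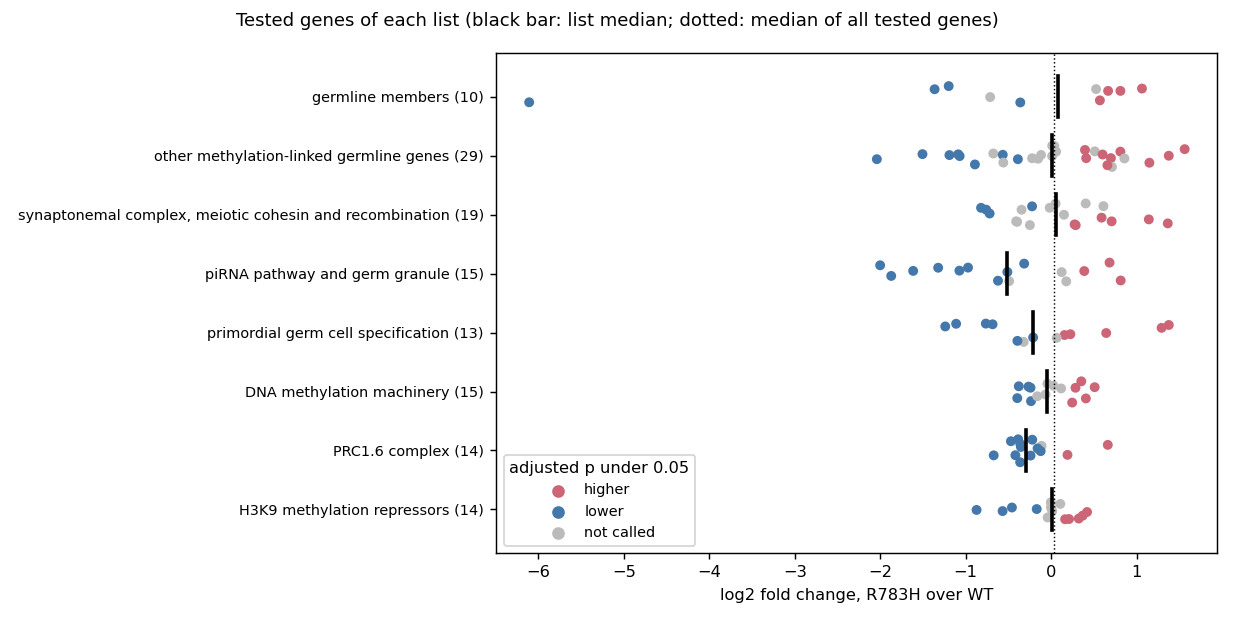
Log2 fold change of R783H over WT for the tested genes of each list, coloured by call, with the list median as a black bar and the median of all tested genes dotted. The germline genes and the lists of other methylation-linked and meiotic genes spread to both sides of 0, and the piRNA list has its median at -0.51.

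The writers, readers and erasers of DNA methylation changed by small amounts, with 5 called higher and 5 lower of 15 tested. Over all tested genes 33.5% were called higher and 30.9% lower, so nothing is read from this count. Dnmt1, the maintenance methyltransferase, rose by 0.25 (SE 0.04), while its partner Uhrf1 fell by 0.27 (SE 0.05). The de novo enzyme Dnmt3b fell by 0.24 (SE 0.04), its cofactor Dnmt3l fell by 0.24 (SE 0.06), and Dnmt3a did not pass (-0.07, SE 0.05). Adjusted p of the 4 called genes ran from 2.01e-04 to 0.00379 by edgeR. The oxidases Tet1 (0.35, SE 0.10) and Tet2 (0.41, SE 0.09) were called higher and Tet3 did not pass (0.12, SE 0.09). The groups overlapped for Tet1, R783H B at 349 CPM lying under WT C at 366 CPM. The chromatin remodeller Hells fell by 0.38 (SE 0.09), its partner Cdca7 fell by 0.40 (SE 0.04), and Mbd2, a methyl-CpG-binding protein gene, rose by 0.28 (SE 0.08). Tdg (-0.16), Zbtb24 (0.03) and Zfp57 (-0.04) did not pass. With the length and GC offset Tet1 was at -0.048 and not called, and Dnmt3a was called at -0.33.

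In PRC1.6, 11 of 14 genes were called lower and 2 called higher (median -0.30), where 30.9% of all tested genes were called lower and 33.5% higher. Leaving out R783H A, R783H C, WT A or WT B left 1 called higher. Mga, its large DNA-binding scaffold, rose by 0.66 (SE 0.09) and Rybp was the other gene called higher (0.19, SE 0.07), with groups that overlapped. Tfdp1, the DP1 partner of E2F6, fell by 0.67 (SE 0.04), and Yaf2 fell by 0.47 (SE 0.13). Adjusted p of Mga, Tfdp1 and Yaf2 were 9.59e-05, 3.27e-07 and 0.00959 by edgeR. R783H B also had the lowest Mga count of its group, 8571 against 11607 and 11684. Of 14 repressors tied to H3K9 methylation, 5 passed as higher and 4 as lower (median 0.00). Without R783H A or WT B 3 were called higher, and with the length and GC offset 3 were higher and 7 lower. Trim28, the corepressor that recruits SETDB1, fell by 0.87 (SE 0.06), the heterochromatin protein gene Cbx1 by 0.57 (SE 0.05) and the methyltransferase gene Ehmt2 by 0.46 (SE 0.06), with adjusted p of 3.98e-07, 2.70e-06 and 5.45e-05 by edgeR.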

How the data were processed

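RNA was measured in 6 libraries, 3 of R783H and 3 of WT cells. The deposited values are whole-number read counts per Entrez gene, 1 column per alignment file per the file headers, and are not normalized. The submitters' processing notes name CASAVA 1.4, HISAT2, SAMtools and the build mm10; how reads were assigned to genes, and whether by strand, is not given in the sources used here. RefSeq GRCm38.p6, the same assembly as mm10, gave symbols, coordinates and promoters (25275 of 27179 identifiers had a symbol).

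The counts were filtered with filterByExpr of edgeR 4.0.16 (minimum count 10, minimum total 15), TMM-scaled and tested with its quasi-likelihood test, group being the single term, with Benjamini-Hochberg adjustment over 14199 genes (R 4.3.3). The SE is the size of the log2 fold change over the square root of F. On simulated data this fit recovered 87 of 100 2-fold and 78 of 100 1.5-fold changes among 14199 genes. Transcript length and GC came from GENCODE M21 (92.0% of tested genes), and shared sequence was sought with bedtools 2.31.1 and BLAST 2.17.0 (98% identity over 100 nt). Alternatives used limma 3.58.1, DESeq2 1.42.0 and mgcv 1.9.3. Besides the 10 genes, 12 lists were read; of 228 list entries 226 were in the table, Tex13c1 and Dux not.

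Named genes are the 10, Trim71, the DNA methylation list, from each other list up to 3 called genes with the largest change, separate groups and a mean count of 10 or more where higher, plus the nearest genes; other names were chosen after their values were seen. A gene that the rule names is not reported here. Named by the rule but not described above are Zfp42 (log2 fold change -0.36), Fgf4 (0.31), Sall4 (-0.36) and Eif1a (-0.35). Of the marker lists, 4 genes were called higher and 4 lower among 13 embryonic stem cell markers, 1 and 0 among 4 tested late spermatogenesis genes, 3 and 0 among 6 of the somatic gonad, 2 and 1 among 6 of fibroblasts, and 0 and 1 among 6 of the 2-cell-like state. Over all tested genes 33.5% were called higher and 30.9% lower. The members and lists were chosen with earlier results of these data known. Intervals and floors cover counting error only.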

Additional observations from a re-analysis of the deposited data

How the results depend on the processing

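Over 15 alternatives the number of genes called ran from 8161 (without WT B) to 9882 (without R783H B). The 10 germline genes gave 3 or 4 higher and 3 or 4 lower calls throughout. Dazl, Sycp1, Stag3, Ddx4 and Mael kept direction and call in all 15, and Tex13b in the 14 in which it was tested, since at least 10 counts in every library removes it. Sycp3 and Stk31 each lost the call in 4. Tex13b was at -7.59 without R783H A and at -5.60 without R783H B, so its fitted size is poorly fixed. DESeq2 called 8341 genes, with 4 and 4 of the germline genes. Letters did not pair libraries: deviations of same-letter libraries correlated at -0.07, 0.01 and 0.09 across genes. The fit with the replicate letter as a block (replicate block) gave 9260 calls and again 4 higher and 4 lower germline genes. With the length and GC offset 8963 genes were called, Tet1 turned to -0.048 and Trim71 to -0.21 (adjusted p 0.0136 by edgeR); the cause was not tested. Tex101 and Slc25a31 had 24 counts or fewer in each library, and Tex13b 4 or fewer in R783H, which limits their precision.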
